A study of Arabidopsis thaliana with 6 samples.

Results

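The most abundant nuclear transcripts read in shoots of Brassica oleracea were those whose probe set gave a signal of 1000 or more on each of 6 Arabidopsis ATH1 arrays. The rule further asked for a probe set that is no control, that has 1 gene in the platform's gene table, and whose gene lies on a nuclear chromosome. Of 19578 non-control probe sets with a value on every array, 167 reached this floor. Of these, 95 have no gene in the table, 18 have several, 27 belong to the plastid genome and 1 gene was not found in the table of chromosomes. The remaining 26 probe sets, for 26 different genes, are described here, out of 11359 nuclear probe sets with 1 gene, or 0.229%. The genes were thus chosen by their signals on the same 6 arrays, so their high level is no finding, and the floor also bounds how low any of them can lie.

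The plants were the doubled haploid line A12dH of Brassica oleracea var. alboglabra, a leafy brassica, and the labels put all of them on compost with a 16 h day at 22 °C. A P-starved group and a nutrient-replete group held 3 arrays each, both from total RNA of shoot tissue, and the study asked which shoot genes respond when phosphate is withheld. The labels do not give the length of starvation, the age of the plants, or whether each sample is a plant or pool of its own. The p-values below therefore rest on a spread between samples that could be technical. Each name below stands for the Arabidopsis gene that the probes were made for, since such probes cannot tell the gene copies of a brassica apart. Signal also depends on how well a probe matches brassica RNA, so no order of abundance among the genes is drawn from it.

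The arrays came in 2 processing sets, told apart by the probe sets they list: the replicate 1 arrays of both groups list 22810 and the other 4 arrays list 19642. Every array was scaled by the authors to a 2% trimmed mean of about 100, and between 330 and 424 of the shared probe sets of an array reached 1000. Of the 3 leaf markers measured under a name on all arrays (of 10 listed), LHCB4.1, SBPASE and PRK summed to between 2579 and 3066 on the replicate 2 and 3 arrays, and to 8302 and 10760.4 on the P-starved and replete replicate 1 arrays. Of 6 root markers 2 were measured, and their sum lay between 70.9 and 142.6 on all 6 arrays. None of the 3 flower markers was measured under a name. The leaf sum thus moved with the processing set, and its part in the results below was not tested.

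A green shoot devotes much of its nuclear messenger RNA to a few machines. Light-harvesting proteins and photosystem subunits are made in the cytosol from nuclear messages and imported into the plastid, while ribosomal proteins are made in the amounts that growth requires. Phosphate is itself a large constituent of ribosomal RNA, of membrane lipids and of the sugar phosphates of photosynthesis.

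The 26 genes fell into a few functions. Cytosolic ribosomal proteins made up 6 of them, proteins of the light reactions and the thylakoid 4, other plastid proteins 4, and proteins of the cytosol and mitochondrion 4. A further 5 were grouped by hand, from their family or name, under defence, stress and autophagy. For 3 (AT5G03880, AT4G20150 and AT3G13410) no role is stated here. The 6 ribosomal genes are those of S19 (AT3G02080), S10 (AT4G25740), L18 (AT5G27850), L35a (AT1G74270), L37 (AT1G52300) and L37a (AT3G60245). In the thylakoid group were LHCB4.2 (AT3G08940), a photosystem II antenna protein, PSAN (AT5G64040), a photosystem I subunit on the lumen side, ATPC1 (AT4G04640), the gamma subunit of the chloroplast ATP synthase, and CURT1A (AT4G01150), which bends thylakoid membranes at grana margins.

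The other plastid proteins were PORB (AT4G27440), a light-dependent enzyme of chlorophyll synthesis, LrgB (AT1G32080), the glycolate and glycerate carrier of photorespiration, a 2-Cys peroxiredoxin (AT3G11630), which removes peroxides, and ketol-acid reductoisomerase (AT3G58610), of branched-chain amino acid synthesis. Outside the plastid stood the cytosolic triose phosphate isomerase TPI (AT3G55440), of glycolysis, the mitochondrial dicarboxylate and tricarboxylate carrier (AT5G19760), subunit 5c of cytochrome c oxidase (AT2G47380), the last complex of the respiratory chain, and a small twin-cysteine protein (AT5G64400). The last group held AT2G45180, of the lipid transfer protein family, the plant defensin PDF1.2b (AT2G26020), the class III peroxidase PRXR1 (AT4G21960), AILP1 (AT5G19140), named for aluminium-induced proteins, and ATG8F (AT4G16520), a ubiquitin-like protein of autophagy. PDF1.2b was read by a probe set of a kind the maker marks as sharing probes with other sequences, so its value may include related defensins.

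**Figure D1:**
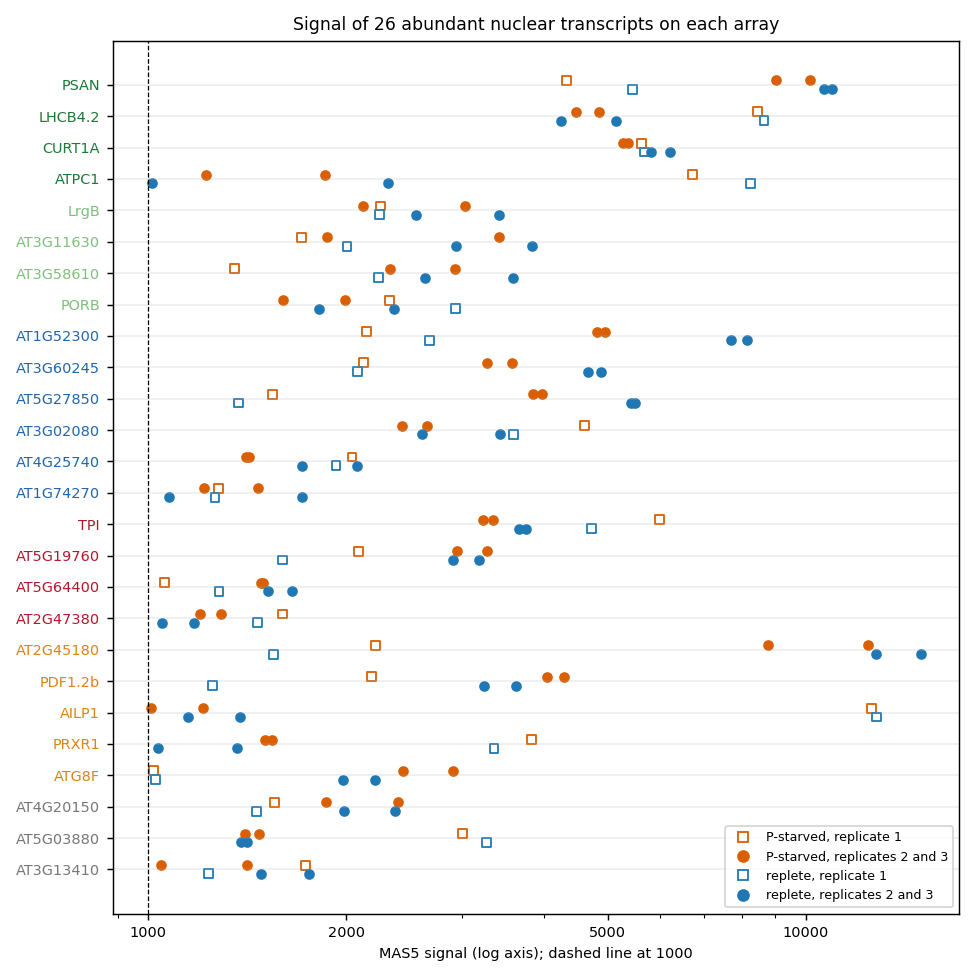
Signal of the 26 genes on each of the 6 arrays, on a log axis, with P-starved arrays in orange, replete arrays in blue, open squares for the replicate 1 arrays and filled circles for replicates 2 and 3. Gene names are coloured by function (dark green light reactions, light green other plastid, blue ribosomal, red cytosol and mitochondrion, orange defence, stress and autophagy, grey no role stated). For AILP1 the squares lie at 12592 and 12824 and the circles between 1009 and 1380.4, while all 6 points of CURT1A lie between 5267 and 6223.

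Which genes reached the floor depended on the processing set. On both replicate 1 arrays 55 nuclear probe sets with 1 gene did so, on all 4 replicate 2 and 3 arrays 83, and in either set 112. The 26 genes common to both make up 47.3% of the first list and 31.3% of the second. Of 125 ribosomal protein genes measured on all arrays (of 224 listed), 10 reached the floor in the replicate 1 set and 18 in the other, and 6 did in both. Of 12 measured light-reaction and thylakoid genes (of 59 listed), 8 reached it in the replicate 1 set and 4 in the second, the latter being the same 4 that are described here. All 3 measured Calvin cycle genes (of 21 listed), PRK, SBPASE and AT1G56190, reached it on the replicate 1 arrays, and none did so on all the others. These lists were written after the values had been seen, and many genes of each are missing because the platform's table gives their probe sets several genes or none.

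Just inside the floor lay AILP1, with a lowest signal of 1009, ATPC1 with 1014 and ATG8F with 1019. Just outside were AT1G56190, a plastid phosphoglycerate kinase of the Calvin cycle, with a lowest signal of 993, AT2G37220, a plastid RNA-binding protein, with 990.1, and the light-harvesting-like gene LIL3:2 with 988, each below 1000 on 1 array only. LIL3:2 shows how little the lowest array can say, as its replicate 2 and 3 arrays lay between 6055 and 7034 and its replicate 1 arrays at 988 and 1102.

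CURT1A was the steadiest of the 26 genes across the arrays. Its signal was 5682, 6223 and 5813 on replete replicates 1, 2 and 3, and 5627, 5267 and 5367 on the P-starved arrays in the same order. All 3 P-starved values lay below all 3 replete values with the authors' scaling, whereas the blocked log2 difference with quantile normalization was 0.01. The coefficient of variation over the 6 arrays was 6.03%. The next lowest spreads were those of AT5G64400 (15.0%), AT2G47380 (15.7%), AT1G74270 (16.8%) and AT4G25740 (17.0%), a twin-cysteine, a respiratory and 2 ribosomal protein genes. For AT2G47380 the 6 signals ran from 1047 to 1599.9, for AT5G64400 from 1057 to 1653. In 11 of the 26 genes the highest array was less than 2-fold above the lowest. The median over all 26 of this ratio was 2.14.

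The least steady genes were AILP1, AT2G45180 and ATPC1. AILP1 had signals of 12824, 1380.4 and 1148 on replete replicates 1, 2 and 3, and 12592, 1009 and 1211 on the P-starved arrays. AT2G45180 ran the other way, with 1551, 14981 and 12816 on the replete and 2219, 12438 and 8777 on the P-starved arrays. ATPC1 had 8240.2, 2314 and 1014 against 6733, 1858 and 1223. In all 3 genes both replicate 1 arrays stood apart from the other 4, and the 2 groups overlapped. The highest array was 12.7, 9.66 and 8.13 times the lowest, in the order given.

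Over the 26 genes the SD of log2(signal + 16) across 6 arrays ran from 0.09 to 1.77, with a median of 0.47. It was 0.61 over all tested probe sets and 0.58 over the 27 plastid-encoded probe sets at the same floor. Over all 141 other probe sets at the floor, the plastid-encoded ones among them, it was 0.43. By this measure the 26 genes were thus no steadier than other bright probe sets. The SD within groups on the replicate 2 and 3 arrays alone had a median of 0.15 over the 26 genes, and lay under 0.25 in 20 of them. For all tested probe sets that median was 0.27, for the plastid-encoded ones 0.25 and for the other 141 at the floor 0.19. Such bright signals cannot dip below 1000 by the way they were chosen, so these medians are given as a description. By this second measure AT5G27850 (0.024), TPI (0.029) and AT5G03880 (0.038) were closest between arrays of the same group, and ATPC1 (0.66) and the peroxiredoxin gene AT3G11630 (0.47) were farthest apart.

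**Figure D2:**
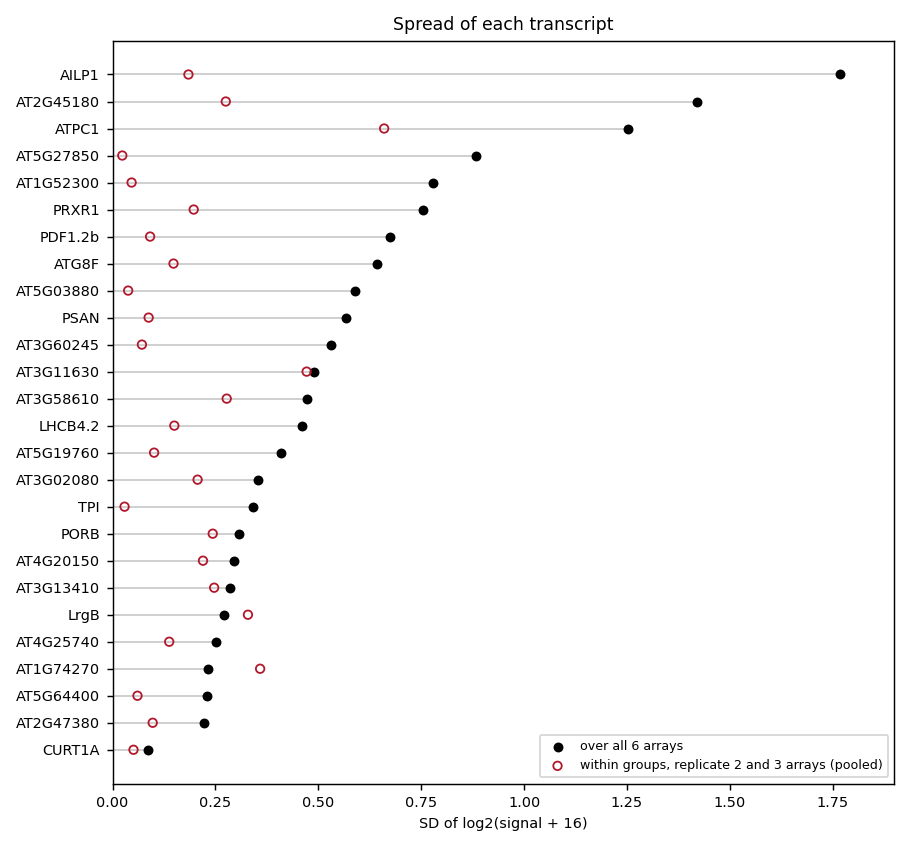
SD of log2(signal + 16) of each gene over all 6 arrays (black points) and pooled within groups over the replicate 2 and 3 arrays (red circles). Most genes have a far smaller spread within the second set, as AT5G27850 with 0.024 against 0.88, whereas for LrgB and AT1G74270 the red circle lies to the right of the black point.

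Most of the spread of these genes lay between the processing sets. The set accounted for a median of 82.1% of the variance of log2 signal over the 6 arrays, and for over 50% in 20 of the 26 genes. This share is not given for all probe sets. The median absolute log2 difference between the sets was 0.72 over the 26 genes and 0.77 over all tested probe sets, so such a difference is not particular to these genes. The sets did not overlap in 19 of 26 genes, beside 60.2% of all tested probe sets. With both set and group in the fit, limma called 10 genes higher on the replicate 2 and 3 arrays, where 14.6% of all probe sets were called, and 6 genes lower, where 28.8% were (Benjamini-Hochberg adjusted over all 19578 probe sets at 0.05). The median of all probe sets was itself 0.25 lower in the second set on this scale. With the medians of the arrays set equal the calls were 14 higher and 4 lower, and with quantile normalization 9 and 6.

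AILP1 was 10.6-fold lower on the replicate 2 and 3 arrays, a log2 difference of -3.41 ± 0.15 (SE; limma's adjusted p = 0.000605). ATPC1 had -2.28 ± 0.36, the peroxidase gene PRXR1 -1.40 ± 0.15 and AT5G03880 -1.14 ± 0.12. The lipid transfer family gene AT2G45180 was 6.44-fold higher there, with a log2 difference of 2.69 ± 0.27 (limma's adjusted p = 0.0012). The ribosomal genes AT5G27850 and AT1G52300 had 1.66 ± 0.18 and 1.37 ± 0.14, PDF1.2b 1.18 ± 0.16 and PSAN 1.06 ± 0.14, and ATG8F was 2.29-fold higher. These 10 genes were over 2-fold apart between the sets, 4 of them higher in the replicate 1 set and 6 in the second. Genes of the same function were found on both sides. PSAN and LHCB4.2 (-0.87 ± 0.14), which serve the 2 photosystems, differed in opposite directions, and so did the ribosomal genes L18 (AT5G27850) and S19 (AT3G02080, -0.56 ± 0.20, limma's adjusted p = 0.0698, not called).

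**Figure D3:**
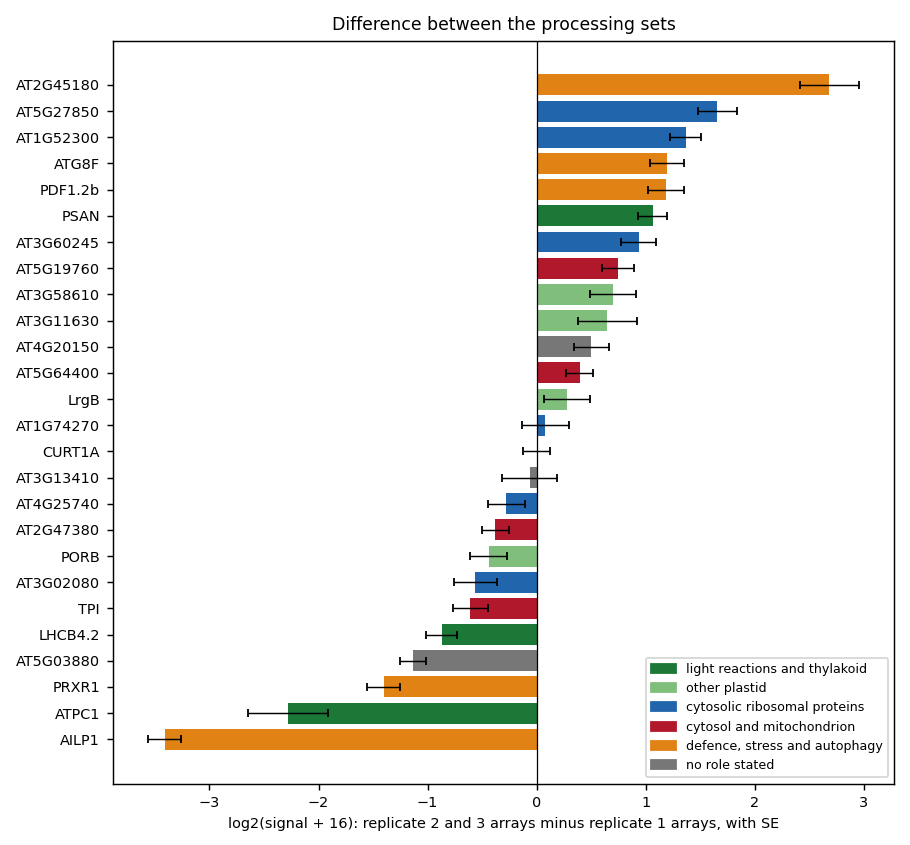
Log2 difference of each gene between the processing sets, replicate 2 and 3 arrays minus replicate 1 arrays, with the SE of the limma fit as error bars and bars coloured by function. Bars reach from -3.41 for AILP1 to 2.69 for AT2G45180, and the bar of CURT1A has no visible length.

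Across the 26 genes, which are not independent replicates, log2 signals of 2 arrays of the same set correlated with r between 0.918 and 0.952 (7 pairs of arrays), and those of 2 arrays of different sets with r between 0.055 and 0.127 (8 pairs). The genes were chosen by a floor on these same arrays, which cuts the range of signals that r is taken over. No r over all probe sets is given, so these values are a description only. The values within a set share their scaling and probe set list, and each set holds arrays of both groups. The P-starved and replete arrays are therefore compared within sets below. The labels do not say whether plants, RNA, hybridisation or computation differed between the sets, and these cannot be told apart.

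No gene of the 26 passed the test between P-starved and replete shoots. With the processing set as a block limma called 0 of the 26 and 0% of all 19578 probe sets, and the smallest adjusted p among the 26 was 0.788. At an unadjusted p under 0.05 there was 1 higher gene, beside 2.71% of all probe sets, and 1 lower gene, beside 3.20%. Without the block limma again called 0% of all probe sets, and 0 of the 26 had an unadjusted p under 0.05, beside 0.848%.

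The lower gene was AT1G52300, of the large-subunit protein L37. Its signal was 2679, 8157 and 7709.5 on replete replicates 1, 2 and 3, and 2149.9, 4958 and 4808 on the P-starved arrays. On the replicate 2 and 3 arrays both P-starved values lay below both replete values. The replicate 1 set, 1 array against 1, had the same direction. The blocked log2 difference was -0.57 ± 0.14 (95% interval -0.91 to -0.23; limma's unadjusted p = 0.00659, adjusted p = 0.788), made up of -0.32 for replicate 1 and -0.70 for replicates 2 and 3.

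The higher gene was the defensin PDF1.2b, whose family is known in Arabidopsis as a marker of jasmonate and ethylene responses. It had 1251, 3629.9 and 3243 on replete replicates 1, 2 and 3, and 2185, 4283 and 4039.8 on the P-starved arrays. The groups did not overlap on the replicate 2 and 3 arrays, and the single replicate 1 arrays differed in the same direction. The blocked difference was 0.45 ± 0.15 (95% interval 0.06 to 0.84; limma's unadjusted p = 0.0295, adjusted p = 0.788), with 0.80 for replicate 1 and 0.28 for replicates 2 and 3.

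With the authors' scaling 20 of the 26 genes had lower values in P-starved shoots, beside 47.4% of all probe sets, and the median log2 difference was -0.11 against 0.02 over all probe sets. With quantile normalization 8 were lower and 18 higher, and the median was 0.04, so the sign of the median rests on the scaling. The replete arrays held 354, 424 and 393 probe sets at 1000 or more, and the P-starved arrays 330, 373 and 359. Quantile normalization sets such counts equal. The other 141 probe sets at the floor had a median of -0.10 with the authors' scaling. The 26 genes together held 2.53%, 3.06% and 3.03% of the summed signal on replete replicates 1, 2 and 3, and 2.70%, 2.82% and 2.62% on the P-starved arrays.

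The count of lower genes was taken within each set, with the authors' scaling. In the replicate 1 set 12 of 26 genes were lower, beside 48.0% of all probe sets, with a median of 0.01. On the replicate 2 and 3 arrays 20 of 26 were lower, beside 46.1%, with a median of -0.18. In that set the groups did not overlap in 10 genes with lower values, beside 16.1% of all probe sets, and in 4 with higher values, beside 22.2%. Limma on these 4 arrays alone called 0 of the 26 and 0% of all probe sets. There, 3 genes were lower at an unadjusted p under 0.05, beside 3.79%, and 0 were higher, beside 3.51%. The count of lower genes on the replicate 2 and 3 arrays became 14 of 26 with quantile normalization, with a median of -0.03. That of the replicate 1 set became 5 of 26, with a median of 0.20.

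In both sets 10 genes were lower, beside 23.1% of all probe sets, and 4 were higher, beside 29.0%. Among them the groups did not overlap on the replicate 2 and 3 arrays for 4 lower genes (AT1G52300, PSAN, CURT1A and AT5G64400), beside 8.59%. The same held for 3 higher genes (PDF1.2b, PRXR1 and AT2G47380), beside 11.9%, a count close to that share. The replicate 1 set, 1 array against 1, cannot overlap and adds only a direction, which for CURT1A rests on a log2 difference of -0.01. These counts use the authors' scaling, and quantile normalization turned the blocked differences of PSAN and CURT1A to 0.02 and 0.01. Over all 6 arrays CURT1A alone was without overlap and lower, beside 1.92%, and 0 genes were higher, beside 2.27%. The limma interaction of group and set, which tests whether the difference itself differed between sets, called 0 of the 26 and 0% of all probe sets. At an unadjusted p under 0.05 it held 2 genes, beside 9.94%, namely the L18 gene AT5G27850 and TPI, and the smallest adjusted p among the 26 was 0.396.

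**Figure D4:**
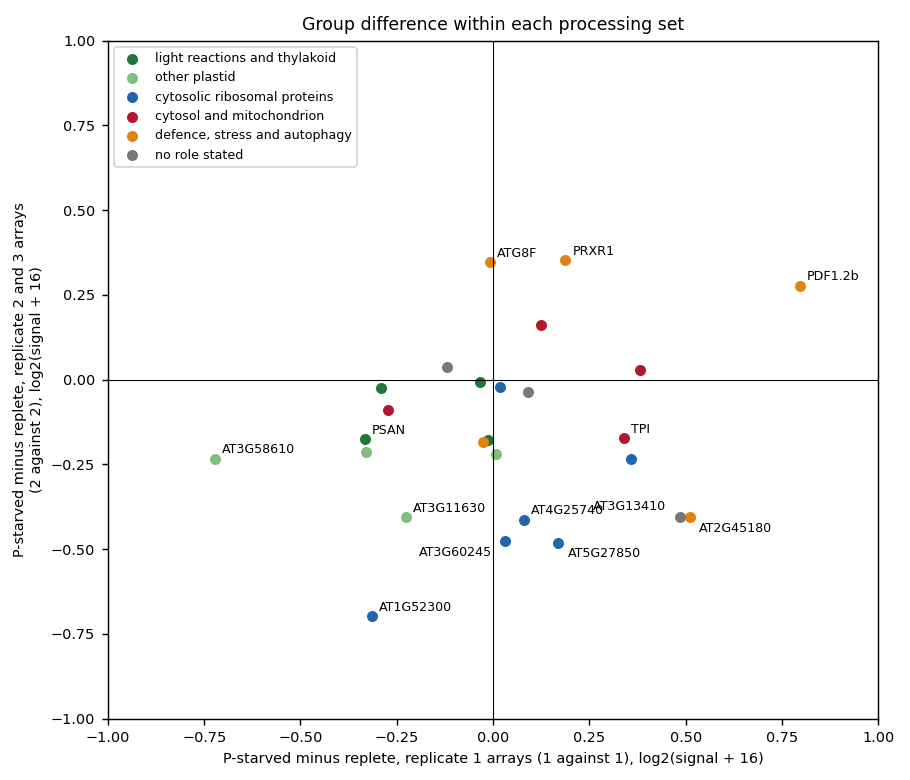
Log2 difference, P-starved minus replete, of each of the 26 genes on the replicate 1 arrays (horizontal, 1 array against 1) and on the replicate 2 and 3 arrays (vertical, 2 against 2), coloured by function. The 6 ribosomal genes all lie below the horizontal line at 0 and only AT1G52300 of them also lies left of the vertical line, while PDF1.2b, at 0.80 and 0.28, lies farthest to the right.

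The 6 ribosomal protein genes were all lower in P-starved shoots in the blocked fit, with a median of -0.26, and 4 of them stayed lower with quantile normalization, with a median of -0.14. On the replicate 2 and 3 arrays 6 of 6 were lower with a median of -0.45 (5 of 6 with quantile normalization), and on the replicate 1 arrays 1 of 6 with a median of 0.06. AT3G60245, of L37a, had 2079.8, 4670.5 and 4884 on the replete and 2126, 3277 and 3581 on the P-starved arrays. AT5G27850, of L18, had 1370.2, 5502 and 5424 against 1543, 3965 and 3849. In both genes the groups were apart on the replicate 2 and 3 arrays, and the single P-starved replicate 1 array lay above the replete one. Their differences on the replicate 2 and 3 arrays were -0.48 each (limma's unadjusted p = 0.036 and 0.034).

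AT4G25740, of S10, had 1929.9, 2078 and 1715 on the replete and 2041, 1406 and 1421 on the P-starved arrays, which gave -0.41 in the second set. AT3G02080 (S19) had -0.23 and AT1G74270 (L35a) -0.02 there, and in both the groups overlapped. Over the whole ribosomal list of 125 measured genes limma called 0 in either direction, and at an unadjusted p under 0.05 it held 16 lower, beside 3.20% of all probe sets, and 0 higher, beside 2.71%. Their median was -0.15 in the blocked fit, 0.01 for replicate 1 and -0.24 for replicates 2 and 3. With quantile normalization 84 of the 125 were lower in the blocked fit, with a median of -0.12. The 119 genes of the list that are not among the 26 had 83 lower and 36 higher, beside 47.4% lower of all probe sets. Their median was -0.14 in the blocked fit and 0.0043 for replicate 1. On the replicate 2 and 3 arrays 86 of the 119 were lower, beside 46.1%, with a median of -0.24.

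None of the 4 light-reaction and thylakoid genes passed the test between the groups. All were lower in both sets with the authors' scaling, with a median of -0.12, and all 4 were higher with quantile normalization, with a median of 0.05. PSAN had 5451, 10653 and 10961 on the replete and 4325, 10146 and 9014 on the P-starved arrays, a blocked difference of -0.23 ± 0.13 (95% interval -0.55 to 0.09). CURT1A had -0.12 ± 0.12 (-0.42 to 0.17) and LHCB4.2 -0.02 ± 0.13 (-0.35 to 0.32). For ATPC1, whose replicate 2 and 3 arrays of each group lay far apart, the interval ran from -0.97 to 0.74. The 8 other measured genes of the light-reaction list had 1 lower and 7 higher with the authors' scaling, with a median of 0.13, beside 47.4% lower of all probe sets. Of these 8 genes 4 were lower on the replicate 1 arrays, with a median of 0.0013. On the replicate 2 and 3 arrays 1 was lower, with a median of 0.23. All 12 together had 5 lower and 7 higher with a median of 0.10, against 0.02 over all probe sets. The 3 measured Calvin cycle genes had 2 lower and 1 higher with a median of -0.31. Limma called 0 genes of either list. At an unadjusted p under 0.05 there were 0 lower genes, beside 3.20% of all probe sets, and 1 higher, beside 2.71%, which was AT1G56190 of the Calvin cycle, by 0.34.

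Lower values in the blocked fit were also found for all 4 other plastid genes, with a median of -0.30, of which 3 were lower with quantile normalization, with a median of -0.14. The reductoisomerase gene AT3G58610 had 2239.8, 3591 and 2632 on the replete and 1351, 2931 and 2328 on the P-starved arrays, a difference of -0.40 ± 0.20. Replicate 1 alone gave -0.72, and replicates 2 and 3, where the groups overlapped, gave -0.23. The peroxiredoxin gene AT3G11630 had -0.35 ± 0.26, PORB -0.25 ± 0.16 and LrgB -0.14 ± 0.20, all with overlapping groups on the replicate 2 and 3 arrays.

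Of the defence, stress and autophagy genes 3 of 5 were higher with the authors' scaling and 5 of 5 with quantile normalization. PRXR1 had 3357, 1035 and 1364 on the replete and 3824, 1504 and 1539 on the P-starved arrays, a difference of 0.30 ± 0.15 (95% interval -0.07 to 0.66). The groups were apart on the replicate 2 and 3 arrays, and the single replicate 1 arrays differed in the same direction. ATG8F, of autophagy, had 1025, 2210.3 and 1981 against 1019, 2441 and 2908, a difference of 0.23 ± 0.15. Replicate 1 alone gave -0.01 and replicates 2 and 3 gave 0.35. AILP1, the least steady gene over the sets, had -0.13 ± 0.14 between the groups. AT2G45180 had 0.51 for replicate 1 and -0.41 for replicates 2 and 3, and its blocked difference was -0.10 ± 0.25.

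In the cytosol and mitochondrion group 2 of 4 genes were higher with the authors' scaling and 3 of 4 with quantile normalization. TPI had 4727, 3662 and 3749 on the replete and 5988, 3231 and 3339 on the P-starved arrays. It was higher by 0.34 on the replicate 1 arrays and differed by -0.17 on the others, so that the blocked difference was -0.002 ± 0.15. The mitochondrial carrier gene AT5G19760 had 0.15 ± 0.14, the oxidase subunit gene AT2G47380 0.15 ± 0.12 and AT5G64400 -0.15 ± 0.11. Among the 3 genes with no role stated, AT4G20150 and AT5G03880 had 0.01 ± 0.15 and -0.01 ± 0.11, and AT3G13410 had 0.49 on the replicate 1 arrays against -0.41 on the others.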

How the data were processed

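The authors deposited 1 intensity per probe set and array, on a linear scale, as MAS5 signal. MAS5 is named in the submitters' processing notes, with no version. From the values, the authors scaled each array to a 2% trimmed mean near 100. No source used here gives the probe set definition or any masking. Names came from the platform's gene table and a TAIR10.1 gene table, from which no coordinates are given because no build is named for the arrays. No sequences are printed.

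Each array was rescaled to a 2% trimmed mean of exactly 100 and log2(signal + 16) was taken. Such differences are on that scale. All 19578 non-control probe sets on all 6 arrays were fitted with limma 3.58.1 in R 4.3.3 (lmFit, eBayes with trend), two-sided, with group and processing set as terms and Benjamini-Hochberg adjustment over all of them at 0.05. The fit was tested on simulated data. Differences are P-starved minus replete, with SE. Precision is limited by having 6 arrays, and detection calls did not enter.

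The members, function lists and named genes were chosen with earlier results of these data known. The rule for names took the genes of highest mean signal, of largest and smallest SD, of largest difference with the same sign in both sets, at the floor, and up to 4 per function. The others of the 26 were named after their values were seen. Function classes were assigned by hand after the values had been seen.

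Same-numbered arrays of the 2 groups deviated together from their group means, with r of 0.84, 0.55 and 0.53 for replicates 1, 2 and 3. The processing set splits the numbers the same way, and within the second set the r was 0.016. The alternatives were a group-only fit, a replicate block, other offsets, filters, scalings and floors, and leaving out each array.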

Additional observations from a re-analysis of the deposited data

Results flagged for a closer look

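Some probe sets have a value only on the replicate 1 arrays and entered no comparison. Of these, 4 nuclear genes had 1000 or more on both arrays, 2 with more signal in the P-starved shoot and 2 with less. The 2 with less signal, RCA and AT2G01720, are given at the end, and the 2 with more are given here. AT4G00810, an acidic ribosomal protein gene, had 2014 with starvation and 1567 when replete, and AT4G27450 had 1759 and 1508. Each is 1 array against 1 with no replicate check.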

How the results depend on the processing

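Limma called 0 of the 26 genes between the groups under all alternatives run. These included each left-out array, the fit with no processing set and the replicate block in place of the set. With the replicate block alone, limma's smallest adjusted p over all probe sets was 0.801 and the median of the 26 was -0.11. The replicate block was run only for the P-starved minus replete differences, where it changed no call. The median of -0.11 became 0.038 with quantile normalization and ran from -0.18 to -0.03 with 1 array left out. The number of genes was 110 at a floor of 500, 8 at a floor of 2000 and 106 when the median of the 6 arrays had to reach 1000. It ran from 27 to 31 with 1 array left out. Calls between the sets ran from 12 to 15 with 1 array left out, and the median SD from 0.39 to 0.50. Scaling to equal medians was chosen after seeing the data.

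Quantile normalization turned 12 log2 differences from below to above 0: AILP1 0.0061, AT1G74270 0.13, AT2G45180 0.090, AT3G02080 0.054, AT3G13410 0.022, AT5G03880 0.13, ATPC1 0.077, CURT1A 0.012, LHCB4.2 0.24, LrgB 0.0074, PSAN 0.020 and TPI 0.086. AT4G20150 was -0.017 with equal medians and -0.036 on the replicate 2 and 3 arrays alone, where AT5G03880 was 0.038. With 1 array left out the sign changed for 10 genes, which ran from -0.19 to 0.19 for AT1G74270, from -0.41 to 0.13 for AT2G45180, from -0.23 to 0.13 for AT3G02080, from -0.41 to 0.10 for AT3G13410, from -0.084 to 0.12 for AT4G20150, from -0.049 to 0.038 for AT5G03880, from -0.47 to 0.20 for ATPC1, from -0.098 to 0.060 for LHCB4.2, from -0.27 to 0.023 for LrgB and from -0.17 to 0.061 for TPI. None of these differences was called in any setting, and the cause was not tested.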

Other observations

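A further pair of nuclear genes reached 1000 on both replicate 1 arrays and is not listed on the others. RCA, the Rubisco activase gene of carbon fixation, had a signal of 4065 with starvation and 5804 when replete, and AT2G01720 had 1636 and 1966.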
